A study of Mus musculus with 12 samples.

Results

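The adrenergic receptor genes are the genes of the cell surface receptors for noradrenaline and adrenaline. The 7 described here were chosen by gene symbol: Adra1a, Adra1b and Adra1d of the alpha-1 subfamily, Adra2a, Adra2b and Adra2c of the alpha-2 subfamily, and Adrb1, the beta-1 receptor gene. They are 7 of the 33024 gene symbols in the count table, and all 7 were measured in all 12 mice. Another 2 rows carry symbols of this family, both of beta receptor genes, and were not analysed here. RNA was sequenced from the cortex of wildtype C57BL/6 mice, 7 controls and 5 that had drunk ethanol (EtOH). From 30 days of age the EtOH mice had 2 bottles in the home cage, 1 of 20% (v/v) ethanol and 1 of water, for sessions of 12 h in the dark on 35 days, a voluntary binge-like drinking model. They then abstained for 14 days, and tissue was taken after behavioural tests, among them water maze, Y-maze, forced swim and rotarod, that followed the abstinence. Controls had 2 bottles of water, and mice of both groups were perfused with saline before the cortex was frozen. How much each mouse drank, the sex of each mouse and the borders of the dissected cortex are not given in the sources used here.

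Noradrenaline reaches the cortex along fibres from the locus coeruleus, a small nucleus of the brainstem that is active during arousal and stress. Alpha-1 receptors couple to Gq and phospholipase C and raise calcium in the cell, alpha-2 receptors couple to Gi and lower cyclic AMP, and beta-1 receptors couple to Gs and raise it. Alpha-2 receptors also sit on noradrenergic fibres themselves, where they hold back further release. Noradrenergic signalling has long been studied in alcohol drinking and withdrawal, and drugs that act on alpha-1 and beta receptors have been tried against both.

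The members are close relatives, and their coding sequences show how far a short read can tell them apart. The lines below give, for each gene, the same 66 bases of coding sequence through the third membrane span, read 5′ to 3′ from the GRCm39 genome. Capitals mark the aspartate codon whose product binds the amine of noradrenaline, near the start, and at the end the 3 codons of the aspartate-arginine-tyrosine motif that meets the G protein.
Adra1a: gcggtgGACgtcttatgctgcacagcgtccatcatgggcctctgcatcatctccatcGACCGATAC
Adra1b: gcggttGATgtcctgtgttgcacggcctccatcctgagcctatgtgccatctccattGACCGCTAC
Adra1d: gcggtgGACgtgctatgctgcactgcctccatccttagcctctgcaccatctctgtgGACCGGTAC
Adra2a: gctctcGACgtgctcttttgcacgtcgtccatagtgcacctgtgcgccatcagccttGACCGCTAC
Adra2b: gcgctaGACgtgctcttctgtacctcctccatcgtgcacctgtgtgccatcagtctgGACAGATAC
Adra2c: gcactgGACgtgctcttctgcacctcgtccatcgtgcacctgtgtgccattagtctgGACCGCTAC
Adrb1: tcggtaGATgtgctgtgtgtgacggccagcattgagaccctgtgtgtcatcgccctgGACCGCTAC
Adra1a lies at chr14:66875336-66875401 on the plus strand, Adra1b at chr11:43726484-43726549 on the minus strand and Adra1d at chr2:131403522-131403587 on the minus strand. The alpha-2 stretches lie on the plus strand at chr19:54035021-54035086 for Adra2a, chr2:127205767-127205832 for Adra2b and chr5:35437614-35437679 for Adra2c, and that of Adrb1 at chr19:56711209-56711274, also on the plus strand. The aspartate codon is spelled GAC in 5 genes and GAT in Adra1b and Adrb1. Between pairs of genes, 60.6% to 89.4% of these bases were identical, the closest pair being Adra2b and Adra2c and the most distant Adra1a and Adrb1. Over the whole coding sequences, the longest run of bases shared by any of the 21 pairs was 26 bases, gagtacaacctgaagcgcacgccgcg, in Adra2a (chr19:54035108-54035133) and Adra2c (chr5:35437701-35437726).

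The 7 genes lie on 5 chromosomes of GRCm39 (Gencode release M39). Adra1a (ENSMUSG00000045875.15) spans chr14:66872700-67012152 and has 2 coding exons, as has Adra1b (ENSMUSG00000050541.15) at chr11:43665433-43792037 and Adra1d (ENSMUSG00000027335.11) at chr2:131385993-131404693. The alpha-2 genes have a single exon each, Adra2a (ENSMUSG00000033717.7) at chr19:54032582-54037413, Adra2b (ENSMUSG00000058620.6) at chr2:127205128-127209141 and Adra2c (ENSMUSG00000045318.7) at chr5:35435663-35439107. Adrb1 (ENSMUSG00000035283.6) spans chr19:56710631-56721545, with 1 coding exon. Genes on the opposite strand overlap 21.3% of the exon bases of Adra1d, 15.7% of those of Adrb1 and 7.91% of those of Adra2a. The strand setting of the counting is not given in the sources used here, so reads of these 3 genes and of their antisense partners may not be told apart, while the other 4 members overlap no annotated gene.

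Total counts ranged from 31768092 to 42183041 per mouse, and 3 counts, taken as the floor of detection, equalled 0.0711 to 0.0944 CPM, which are counts after scaling to an equal library size. The tissue carried the markers of cortex: the summed level of 12 cortical excitatory neuron genes was 2872 to 3391 CPM in controls and 2750 to 3326 CPM in EtOH mice. Of these 12, Foxp2 (log2 fold change -1.21) and Lamp5 (-0.51) were lower and Fezf2 (0.60) was higher. Genes of neighbouring regions were also present and differed between the groups, where lower and higher mean an adjusted p below 0.05 in edgeR's test and a log2 fold change over 0.5 in size, which 4.09% and 4.20% of all genes met. All 12 striatum markers were lower in EtOH mice, with a summed level of 1004 to 2413 CPM in controls and 235 to 303 CPM in EtOH mice, and 10 of 12 hippocampus markers were higher, at 277 to 399 and 597 to 800 CPM. The 11 thalamus markers tested moved less uniformly, 2 lower and 1 higher, with overlapping sums of 188 to 225 and 177 to 219 CPM. Of the cell type lists, 3 of 8 interneuron markers, 1 of 8 oligodendrocyte markers and 0 of 6 microglial markers were lower, 1 of 9 astrocyte markers was higher, and 0 of 5 mural cell markers met these limits. All 6 microglial markers had negative log2 fold changes, and 3 of them, Tmem119, C1qa and Csf1r, had an adjusted p under 0.05 with changes smaller than the fold minimum. The astrocyte score, the mean log2 CPM of its 9 markers, was 7.09 to 7.24 in controls and 7.25 to 7.33 in EtOH mice, without overlap. The part of tissue composition in the receptor results was not tested, and in bulk tissue fewer cells of a type and less RNA per cell cannot be told apart.

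Of the 7 receptor genes, 3 were lower in EtOH mice and 0 were higher. A gene was called when its log2 fold change exceeded 0.5 in size and its adjusted p was below 0.05 (edgeR's quasi-likelihood test, Benjamini-Hochberg adjustment over the 16059 genes tested), which called 8.29% of all genes, 4.09% lower and 4.20% higher. The 3 called were Adra1b, Adra2b and Adra2c, 1 of the alpha-1 and 2 of the alpha-2 subfamily. Adra2b was admitted to the test through the controls alone and could then only be lower, so that 2 of the 3, Adra1b and Adra2c, bear on a comparison with these shares. For Adra1b alone, every EtOH mouse lay below every control mouse, which held for 4.96% of genes, and for 0 of the 7 did every EtOH mouse lie above, which held for 4.84%. As the members were proposed with earlier results of these data known, the counts describe the family and were not tested against other genes.

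**Figure D1:**
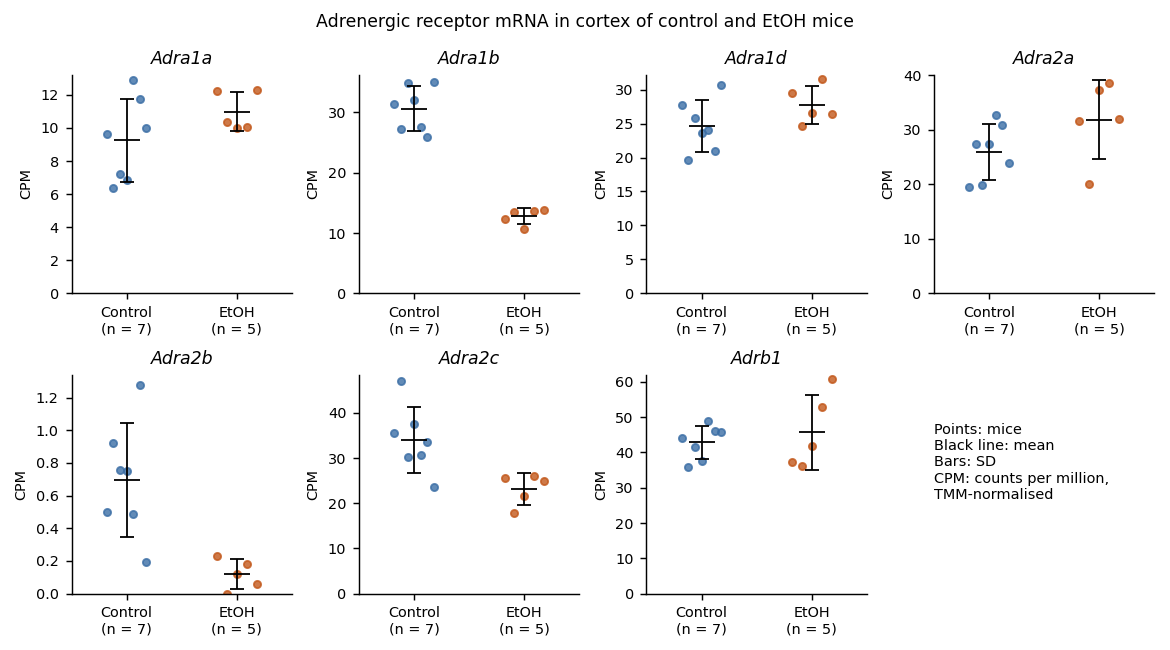
Level of each receptor gene in CPM (vertical axes, starting at 0) in 7 control and 5 EtOH mice, with points for mice, a black line for the mean and bars for the SD. The 5 EtOH mice lie apart from all controls for Adra1b, between 10.6 and 13.8 CPM, and overlap the controls for the other 6 genes.

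Adra1b, the alpha-1B receptor gene, gave the clearest difference of the family. In controls it ranged from 25.9 to 35.1 CPM with a median of 31.4 CPM. In the EtOH mice it was measured at 12.3, 13.6, 10.6, 13.6 and 13.8 CPM. All 5 EtOH mice were thus low, none came near the lowest control, and the spread within each group was small against the gap. The mean fell from 30.6 ± 3.72 CPM (SD, n = 7) to 12.8 ± 1.35 CPM (SD, n = 5), 2.39-fold lower, with a log2 fold change of -1.26 (SE 0.093, adjusted p = 5.75e-08). These means rest on 812 to 1132 counts per control mouse and 356 to 532 per EtOH mouse. The hippocampus score, the mean log2 CPM of the 12 hippocampus markers, was 2.28 to 2.61 in controls and 4.09 to 4.74 in EtOH mice. The scores of the striatum, interneuron and astrocyte markers also lay apart between the groups. The part of any of these scores in the Adra1b result was not tested.

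Adra1d, the alpha-1D receptor gene, did not pass the test. Controls ranged from 19.6 to 30.7 CPM with a median of 24.0 CPM, and the EtOH mice were at 29.5, 24.6, 26.6, 31.6 and 26.5 CPM. A single EtOH mouse exceeded the highest control, and the other 4 lay among the controls. The means were 24.7 ± 3.83 CPM (SD, n = 7) and 27.7 ± 2.78 CPM (SD, n = 5), giving a log2 fold change of 0.17 (SE 0.098, adjusted p = 0.219). Its 95% interval of -0.04 to 0.38 reaches only slightly into the direction in which Adra1b fell.

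Adra1a, the alpha-1A receptor gene, varied most among controls within its subfamily, with a coefficient of variation of 27.4%. Control mice ranged from 6.37 to 12.9 CPM with a median of 9.61 CPM, while the EtOH mice read 12.2, 10.3, 10.02, 10.04 and 12.3 CPM. All 5 EtOH values fell inside the control range, towards its upper end. The means were 9.24 ± 2.53 CPM (SD, n = 7) and 11.0 ± 1.17 CPM (SD, n = 5), and the log2 fold change of 0.25 (SE 0.16, 95% interval -0.08 to 0.57) did not pass the test (adjusted p = 0.266).

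Adra2c, the alpha-2C receptor gene, is abundant in striatum and hippocampus as well as cortex and was modestly lower in EtOH mice. Its level in controls ran from 23.6 to 46.9 CPM with a median of 33.6 CPM. In EtOH mice it was 25.5, 17.7, 21.7, 26.1 and 24.8 CPM. The groups met at the level of a single mouse, Control 7, whose 23.6 CPM lay inside the EtOH range, and 2 of 5 EtOH mice were below it. The mean fell from 34.0 ± 7.25 CPM (SD, n = 7) to 23.2 ± 3.48 CPM (SD, n = 5), with a log2 fold change of -0.55 (SE 0.13, adjusted p = 0.00630). The size of the change stood close to the minimum of 0.5: without Control 2, the highest control, the log2 fold change was -0.46 (adjusted p = 0.00929), and without EtOH 2, the lowest EtOH mouse, it was -0.48 (adjusted p = 0.0157), both under the fold minimum.

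Adra2b, the alpha-2B receptor gene, is known in the brain chiefly from the thalamus and was the scarcest member. Control counts were 16, 30, 24, 24, 20, 40 and 6, equal to 0.192 to 1.28 CPM with a median of 0.750 CPM. EtOH counts were 10, 0, 4, 6 and 2, or 0.232, 0, 0.119, 0.182 and 0.061 CPM, and the count of 0 in EtOH 2 allows up to 0.0936 CPM. Control 7 was again the low control, inside the EtOH range, and 4 of 5 EtOH mice lay below it. The mean fell from 0.698 ± 0.348 CPM (SD, n = 7) to 0.119 ± 0.0925 CPM (SD, n = 5), with a fitted log2 fold change of -2.46 (SE 0.52). Adra2b passed the expression filter through the controls, as 6 control mice and 0 EtOH mice were over the filter's level, and a gene admitted in this way had to be lower in EtOH mice, so no p is given from that fit. In a fit that admitted any gene with at least 1 count in any mouse, 23750 genes, the log2 fold change was -2.46 (SE 0.51, adjusted p = 0.00150). All 12 of its counts were even numbers, and after halving of all counts it no longer passed the filter. The thalamus score overlapped between the groups, at 3.63 to 3.91 in controls and 3.54 to 3.78 in EtOH mice. The listed thalamus marker that was too scarce to be tested, Gbx2, had 2 to 28 counts in controls and 0 to 2 in EtOH mice, and its part in the Adra2b result was not tested.

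In the RefSeq promoter table used here 5 of the 7 members were matched, and those of Adra1b and Adra2b, the 2 receptor genes with the largest log2 fold changes, are shown. The window of Adra2c, the third that was lower, lies for 247 of its 250 bases within an annotated exon and is not shown. The lines below give the 250 bases before each RefSeq start, 5′ to 3′ on the strand of the gene in GRCm38.p6, with capitals for a GC box, searched as GGGCGG on both strands, where it reads CCGCCC on the strand shown.
Adra2b: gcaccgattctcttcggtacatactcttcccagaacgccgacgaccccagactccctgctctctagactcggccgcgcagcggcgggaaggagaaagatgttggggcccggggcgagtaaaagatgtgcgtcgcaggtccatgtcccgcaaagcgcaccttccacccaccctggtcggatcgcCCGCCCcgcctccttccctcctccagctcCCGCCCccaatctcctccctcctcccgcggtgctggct
Adra1b, upstream start: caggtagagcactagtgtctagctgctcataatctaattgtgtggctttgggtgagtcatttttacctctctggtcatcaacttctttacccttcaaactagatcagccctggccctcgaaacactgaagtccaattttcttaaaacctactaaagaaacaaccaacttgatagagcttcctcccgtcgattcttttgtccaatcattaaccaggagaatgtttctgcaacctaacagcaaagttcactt
Adra1b, downstream start: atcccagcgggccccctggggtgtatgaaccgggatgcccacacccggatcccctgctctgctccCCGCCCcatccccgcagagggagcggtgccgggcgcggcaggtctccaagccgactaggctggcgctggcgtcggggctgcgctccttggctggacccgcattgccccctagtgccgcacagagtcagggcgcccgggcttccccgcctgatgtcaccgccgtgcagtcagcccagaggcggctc
The window of Adra2b lies at chr2:127362929-127363178 on the plus strand, and those of Adra1b at chr11:43901238-43901487 and chr11:43836490-43836739 on the minus strand. GC content was 66% for Adra2b and 41.6% and 72.8% for the upstream and downstream start of Adra1b, beside a median of 52.4% over all 32851 promoter windows. A GC box stood in the Adra2b window and in the downstream Adra1b window, as in 32.7% of all windows. GC boxes were also in the windows of Adra2a and Adrb1, which were not called, and none was in that of Adra2c, whose GC content was 53.6%. Also searched on both strands were a cyclic AMP response element (TGACGTCA, in 1.55% of windows) and the TGACG part within it (17.8%). A TATA box (TATAAA, 12.4%) was searched in the same way. None of these motifs was in the Adra2b window or the 2 Adra1b windows shown. The Adra2a window held TGACG and TATAAA, and that of Adrb1 held TGACG. Which start of Adra1b was used in these mice cannot be read from counts per gene.

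Adra2a, the alpha-2A receptor gene and the main autoreceptor of noradrenergic fibres, ranged from 19.6 to 32.7 CPM in controls with a median of 27.4 CPM. EtOH mice were at 31.6, 20.1, 37.2, 38.6 and 31.98 CPM. The values of 2 EtOH mice were above every control, while EtOH 2 was near the lowest control. The means were 26.0 ± 5.11 CPM (SD, n = 7) and 31.9 ± 7.27 CPM (SD, n = 5), giving a log2 fold change of 0.30 (SE 0.15, 95% interval -0.02 to 0.61) that did not pass the test (adjusted p = 0.158).

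Adrb1, the main beta receptor gene of forebrain neurons, ranged from 35.8 to 49.0 CPM in controls with a median of 44.1 CPM. EtOH mice were at 37.3, 36.1, 41.8, 52.8 and 60.7 CPM. The EtOH group spread more widely than the controls, with EtOH 4 and EtOH 5 above the highest control and the other 3 within the control range. The means of 42.8 ± 4.78 CPM (SD, n = 7) and 45.7 ± 10.7 CPM (SD, n = 5) gave a log2 fold change of 0.09 (SE 0.12, 95% interval -0.15 to 0.34, adjusted p = 0.598). The sign rested on EtOH 5, without which the log2 fold change was -0.03.

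Levels can be set beside each other only per length, and here CPM was divided by the kilobases of merged exons. In controls Adrb1 stood first at 12.7 ± 1.41 CPM per kb (SD, n = 7), followed by Adra2c at 9.87 ± 2.10 and Adra1b at 9.04 ± 1.098, and the ranges of neighbours in this order overlapped. Next came Adra1d, at 5.92 ± 0.919 CPM per kb, and Adra2a, at 5.38 ± 1.06, which overlapped with each other. The range of Adra1d lay apart from that of Adra1b but not from that of Adra2c, and in Control 7 Adra1d (7.38 CPM per kb) was above Adra2c (6.85). Adra1a, at 0.459 ± 0.125 CPM per kb, and Adra2b, at 0.174 ± 0.0867, lay apart below all others and overlapped with each other. In EtOH mice Adrb1 alone stood at the top at 13.5 ± 3.15 CPM per kb (SD, n = 5). Adra2c at 6.72 ± 1.01, Adra1d at 6.66 ± 0.668 and Adra2a at 6.60 ± 1.51 CPM per kb overlapped behind it, and Adra1b, at 3.78 ± 0.399, had dropped from the third place to the fifth with no overlap on either side. Adra1a has long merged exons, and dividing by its longest transcript instead gave 0.848 CPM per kb in controls and 1.01 in EtOH mice, in the same place in the order.

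The make-up of each subfamily shifted, counted as each gene's share of the subfamily's summed CPM per kb. Adra1b held 58.7% ± 2.45 (SD, n = 7) of the alpha-1 level in controls and 34.4% ± 3.11 (SD, n = 5) in EtOH mice. Adra1d went the other way, from 38.3% ± 1.89 to 60.6% ± 3.26, so the leading alpha-1 gene was Adra1b in all 7 controls and Adra1d in all 5 EtOH mice. Adra1a remained the smallest, at 3.02% ± 0.973 and 4.97% ± 0.544, or 5.39% and 8.78% when lengths were those of the longest transcripts. Among the alpha-2 genes, Adra2c held 63.8% ± 5.97 in controls and 50.7% ± 4.08 in EtOH mice, and Adra2a 35.1% ± 6.06 and 49.1% ± 4.03. Adra2b contributed 1.1% ± 0.493 in controls and 0.205% ± 0.159 in EtOH mice. A share can rise because its own gene rose or because another fell, and the level of Adra1d itself did not pass the test.

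**Figure D2:**
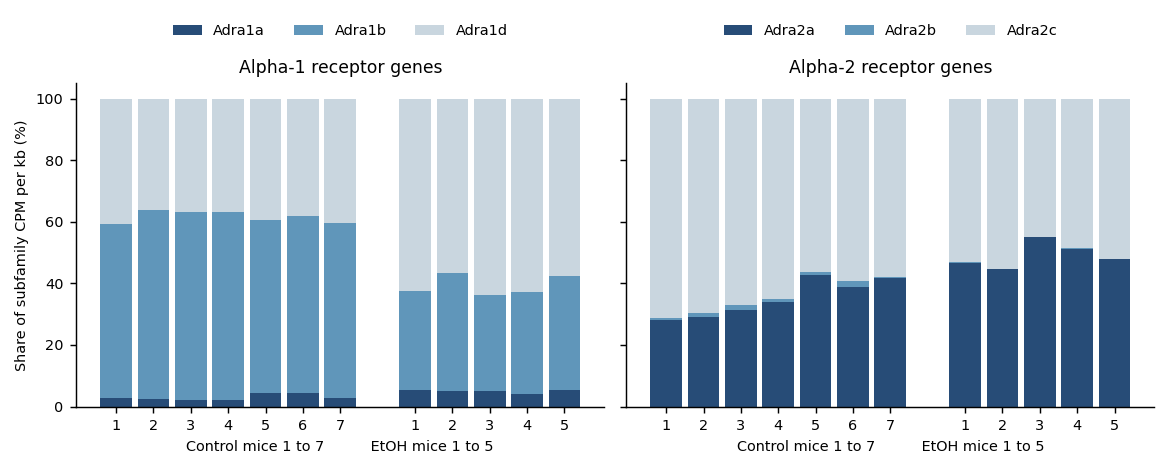
Share of each subfamily's summed CPM per kb (vertical axis, percent) held by each alpha-1 gene, left, and each alpha-2 gene, right, with a stacked bar for each control mouse 1 to 7 and each EtOH mouse 1 to 5. Adra1b takes 56.1% to 61.5% of the alpha-1 bar in controls and 31.4% to 38.5% in EtOH mice.

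Whether members of a subfamily moved unequally was tested with the log2 ratio of their CPM values within each mouse, over 6 pairs. The test was an exact permutation test, two-sided, over the 792 ways to divide the mice into 5 and 7, and 0.00126 is the smallest p it can give, with Benjamini-Hochberg adjustment over the 6 pairs. Adra1b over Adra1d was 0.32 ± 0.13 in controls and -1.12 ± 0.21 in EtOH mice (SD), a difference of -1.43 (exact permutation p = 0.00126, adjusted p = 0.00253). All 7 controls had more Adra1b than Adra1d reads, at 0.18 to 0.47 on the log2 scale, and all 5 EtOH mice had fewer, at -1.32 to -0.85. Adra1a over Adra1b rose by 1.54 (exact permutation p = 0.00126, adjusted p = 0.00253), again with no overlap. Adra1a over Adra1d differed by 0.11 (exact permutation p = 0.593, adjusted p = 0.593), with all 5 EtOH mice inside the control range. Adra1b was thus the member of the alpha-1 subfamily that moved against both of the others.

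Among the alpha-2 genes, Adra2a and Adra2c moved unequally. Their ratio, Adra2a over Adra2c, rose by 0.83, from -0.39 ± 0.38 in controls to 0.44 ± 0.23 in EtOH mice (exact permutation p = 0.00379, adjusted p = 0.00455). The highest control, Control 5, was at 0.09 and the lowest EtOH mouse, EtOH 2, at 0.18, so the groups did not overlap but came close. The 2 ratios with Adra2b stay among the 6 pairs of the adjustment but are given here without a p, as that gene passed the filter through the controls and had to be lower in EtOH mice. Adra2a over Adra2b was 5.24 ± 0.75 in controls and 7.66 ± 0.64 in EtOH mice, a difference of 2.42, and Adra2b over Adra2c was -5.62 ± 0.60 and -7.22 ± 0.73, a difference of -1.59. Both depend on the prior count added to the few Adra2b counts, and with a prior count of 0.5 in place of 2 the differences were 3.03 and -2.20.

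**Figure D3:**
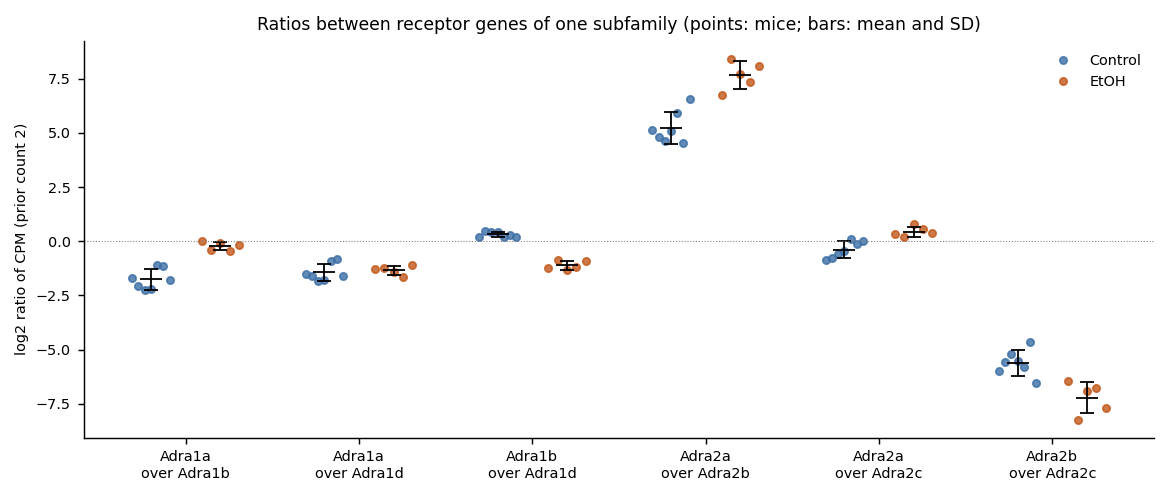
Log2 ratio of CPM (vertical axis, prior count 2) for the 6 pairs of genes within the alpha-1 and alpha-2 subfamilies, with points for 7 control and 5 EtOH mice and bars for the mean and SD. Adra1b over Adra1d lies above 0 in every control and below 0 in every EtOH mouse, and Adra1a over Adra1d overlaps.

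Since the groups differed in region markers, the relation of each receptor to the striatum, thalamus and hippocampus scores was examined among the 7 controls alone, in 21 relations with exact permutation tests. None had an adjusted p under 0.05. Between Adra2c and the striatum score, the mean log2 CPM of the 12 striatum markers, Pearson's r was 0.95 (exact permutation p = 0.00397, adjusted p = 0.0563) and Spearman's rho was 0.82 (exact permutation p = 0.0341, adjusted p = 0.179). Without Control 5 and Control 7, the mice farthest from the median score, r was 0.90. Control 7 had the lowest striatum score of the controls, 5.30, as well as the lowest Adra2c, and the EtOH mice had scores of 2.18 to 3.15. Adra1b and the hippocampus score had r = -0.92 (exact permutation p = 0.00536, adjusted p = 0.0563) and rho = -0.89 (exact permutation p = 0.0123, adjusted p = 0.129), and r was -0.99 without Control 5 and Control 6. Adra2b had r = 0.85 with the striatum score (exact permutation p = 0.0244, adjusted p = 0.109; rho = 0.82, exact permutation p = 0.0341, adjusted p = 0.179), and this rested on 2 mice, as r was 0.31 without Control 5 and Control 7. Adra1d, which was not called, had relations of like size, with r = -0.85 (exact permutation p = 0.0181, adjusted p = 0.109) and rho = -0.93 (exact permutation p = 0.00675, adjusted p = 0.129) to the thalamus score, where r was -0.77 without Control 2 and Control 4. Its r with the striatum score was -0.80 (exact permutation p = 0.0260, adjusted p = 0.109; rho = -0.75, exact permutation p = 0.0663, adjusted p = 0.199), and -0.73 without Control 5 and Control 7. Adra2a and the hippocampus score had r = 0.78 (exact permutation p = 0.0458, adjusted p = 0.160; rho = 0.75, exact permutation p = 0.0663, adjusted p = 0.199), and r was 0.42 without Control 5 and Control 6. The part of striatal or hippocampal tissue in the lower Adra2c, Adra1b and Adra2b of EtOH mice was not tested.

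**Figure D4:**
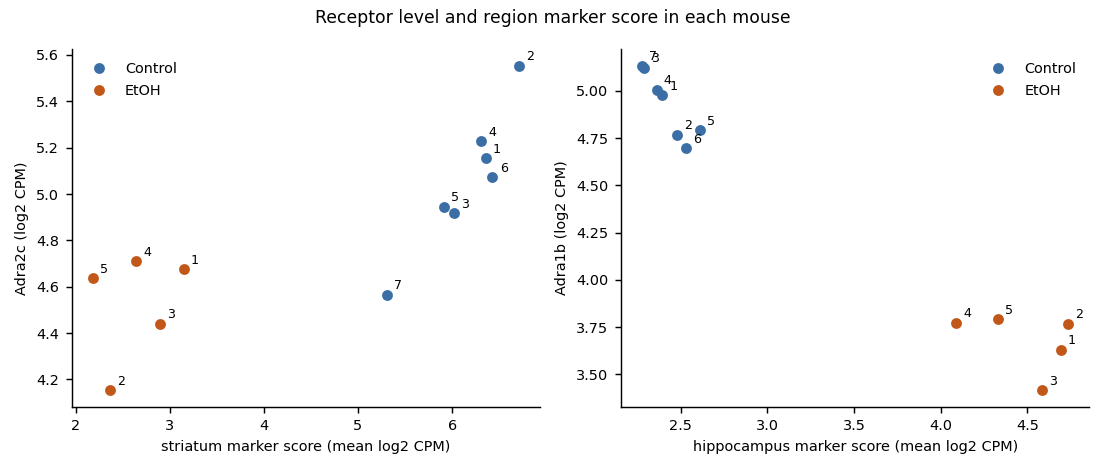
Receptor level against region marker score in each mouse, both as log2 CPM, for Adra2c and the striatum score, left, and Adra1b and the hippocampus score, right, with control mice in blue, EtOH mice in orange and mouse numbers beside the points. The EtOH mice lie at striatum scores of 2.18 to 3.15 and controls at 5.30 to 6.71, and no mouse falls between the groups.

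The genes around the receptors were described by role, from lists of genes of noradrenaline handling, of G proteins and effectors, and of desensitisation. Of 12 genes of noradrenaline synthesis, storage and clearance, 11 were tested, 4 were lower and 1 was higher, beside 4.09% and 4.20% of all genes, with a median log2 fold change of -0.31 beside 0.00 over all genes tested. Th, tyrosine hydroxylase, which starts catecholamine synthesis, fell from 8.52 ± 4.85 CPM (SD, n = 7) to 1.43 ± 0.427 CPM (SD, n = 5), with a log2 fold change of -2.59 (adjusted p = 3.03e-05). Pnmt, which makes adrenaline from noradrenaline, was at 0.431 CPM in controls (log2 fold change -2.60), and Slc6a3, the dopamine transporter, at 0.436 CPM (log2 fold change -1.90). In EtOH mice they were at 0.0674 and 0.115 CPM, around the floor of 3 counts. Like Adra2b, both passed the expression filter through the controls, with 0 EtOH mice over its level, so that they had to be lower if tested and no p is given. That leaves 2 of the 4, Th and Slc22a3, to set beside the share of all genes. Slc22a3, a low-affinity monoamine carrier, was at 3.29 ± 0.714 CPM in controls and 1.73 ± 0.295 CPM in EtOH mice (log2 fold change -0.92, adjusted p = 0.00105). Slc29a4, another such carrier, rose from 9.85 ± 2.27 to 19.8 ± 5.95 CPM (log2 fold change 1.01, adjusted p = 0.000405). Dbh, dopamine beta-hydroxylase, the step that makes noradrenaline itself, was at 0.655 ± 0.191 and 0.358 ± 0.174 CPM and did not pass the test (log2 fold change -0.86, adjusted p = 0.0738). Of the 6 genes that mark noradrenergic neurons, 3 were tested and 1, Th, was lower. Phox2a and Slc6a2 were at or near 0, with at most 4 counts per mouse except 19 for Slc6a2 in 1 EtOH mouse, and the list of 6 summed to 11.4 to 26.0 CPM in controls and 5.47 to 8.60 CPM in EtOH mice.

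Among 28 genes of G protein alpha subunits and the effectors of the receptors, all tested, 2 were lower and 2 were higher, beside the same 4.09% and 4.20% of all genes, and the median log2 fold change was 0.00. The alpha-1 partners Gnaq and Gna11 and the alpha-2 partners Gnai1, Gnai2, Gnai3, Gnao1 and Gnaz were not called. Gnaq missed the call by the fold minimum alone, at a log2 fold change of 0.20 (adjusted p = 0.00286). For Gnaq every EtOH mouse lay above every control. Gnas, the Gs partner of Adrb1, was likewise under the fold minimum, at -0.25 (adjusted p = 0.0470). Gnal, the alpha subunit that stands in for Gs in striatum and olfactory tissue, fell from 274.4 ± 33.7 CPM (SD, n = 7) to 131 ± 9.39 CPM (SD, n = 5), with a log2 fold change of -1.07 (adjusted p = 1.03e-07). Adcy5, the main adenylyl cyclase of striatum, fell from 465 ± 80.0 to 176 ± 19.5 CPM (log2 fold change -1.40, adjusted p = 1.84e-07). Adcy1 and Adcy8, adenylyl cyclases that calcium stimulates, rose, Adcy1 from 766 ± 143 to 1199 ± 165 CPM (log2 fold change 0.65, adjusted p = 0.000710) and Adcy8 from 20.5 ± 1.499 to 45.1 ± 2.19 CPM (log2 fold change 1.14, adjusted p = 1.46e-09). A list of 15 genes held 4 receptor kinases, 2 arrestins and 8 RGS proteins, which shorten receptor signals, and Ppp1r9b, the scaffold protein spinophilin. Of these, 2 were lower and 1 was higher, against those same shares, with a median of -0.19. Counts this small in lists of this size were not tested against the shares. Rgs9, which is also on the striatum list, fell by 3.13 on the log2 scale (adjusted p = 1.14e-09) and Rgs4, a regulator of Gq and Gi signals in cortex, by 0.63 (adjusted p = 4.51e-05). Grk3, a kinase that phosphorylates active receptors, rose from 106 ± 13.1 to 165 ± 12.5 CPM (log2 fold change 0.64, adjusted p = 1.64e-05). As for the receptors, these genes were set beside region markers that moved with the groups, and the part of region markers in them was not tested.

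**Figure D5:**
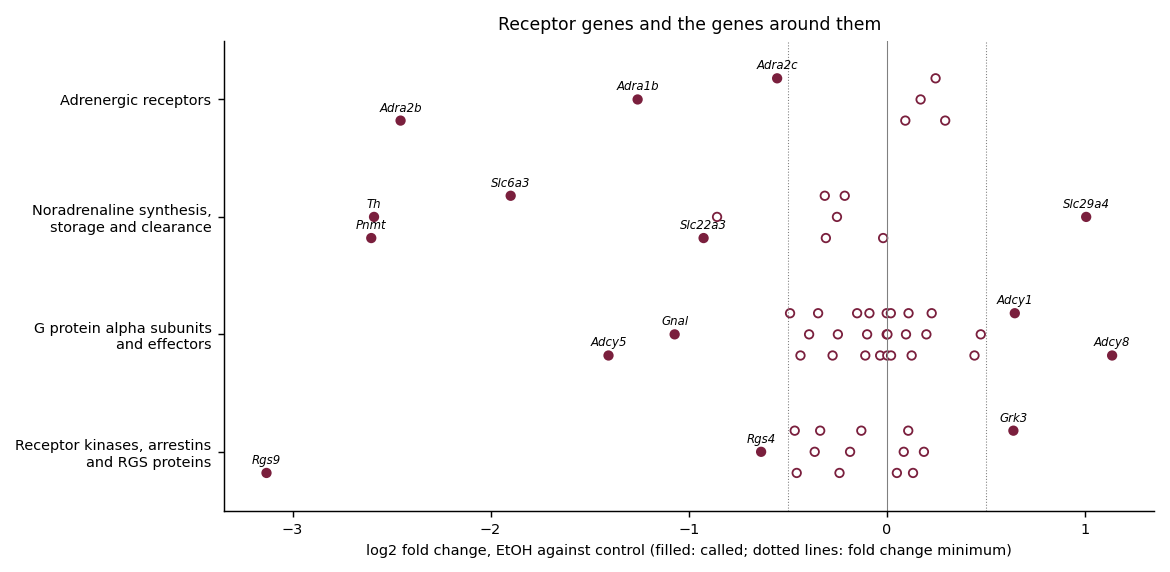
Log2 fold change, EtOH against control (horizontal axis), of the 7 receptor genes and of the tested genes of 3 partner lists, with filled points for called genes and dotted lines at the fold change minimum of 0.5. Filled receptor points, Adra2b, Adra1b and Adra2c, lie left of the lower line, and the partner lists hold filled points on both sides.

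For each member, the genes whose level moved most alike within the groups were taken from the 16058 other genes tested, by Pearson's r of deviations from the group mean of log2 CPM over 12 mice. As the best of so many genes, these values describe the libraries and carry no test. The 3 genes closest to Adra2c were Tmem158 (r = 0.94), Ppp2r5d (r = 0.94) and Drd1 (r = 0.92), the last being the D1 dopamine receptor and a striatum marker, at a log2 fold change of -2.54 between the groups (adjusted p = 4.38e-08). Closest to Adra2b were Rnf34 (r = 0.94), Cd36 (r = 0.92) and Oprk1 (r = 0.91), the kappa opioid receptor gene. Between the groups these went different ways, Cd36 being higher in EtOH mice (log2 fold change 1.53, adjusted p = 0.00325), Oprk1 lower (-1.92, adjusted p = 2.61e-07) and Rnf34 not called (-0.07, adjusted p = 0.395). Adra1b was followed by Tedc1 (r = 0.97), Il11ra1 (r = 0.92) and Etnk2 (r = 0.91), none of which was called. Adra1d had Nptx1 (r = 0.90) and Adam19 (r = 0.88) among its nearest, and Adra1a had Sned1 (r = 0.97), Peg3 (r = 0.95) and Foxk1 (r = 0.95). Adra2a lay nearest to Cars2 (r = 0.91), Syt9 (r = 0.91) and Cdh13 (r = 0.90), and Adrb1 to Cry2 (r = 0.95), a circadian repressor, Atp8b2 (r = 0.94) and 1810055G02Rik (r = 0.93).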

How the data were processed

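Cortex RNA of 7 control and 5 EtOH mice was measured, and each mouse was assigned to its group by its label. Total RNA was sequenced by BGI on DNBSEQ. Reads were checked with FastQC 0.11.9, aligned with STAR to GRCm39 (mm39) under the annotation of Gencode Release 28, and assigned to genes with featureCounts. The study compared groups with DESeq2. The authors deposited expected counts per gene symbol without normalization, and 61 symbols, none of them a receptor gene described here, held values that were not whole. Column names gave the mouse for all 12 columns. Strand and multi-mapping settings are not given in the sources used here.

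Counts were rounded, filtered with filterByExpr (at least 10 counts at the median depth in 5 mice) and scaled with TMM factors of 0.982 to 1.02. The 16059 genes left were fitted with edgeR's quasi-likelihood test and group as the only term (R 4.3.3, edgeR 4.0.16, limma 3.58.1), with Benjamini-Hochberg adjustment and the study's thresholds. CPM values are TMM-normalised, log2 CPM uses a prior count of 2, and 95% intervals use the test's degrees of freedom. Ratios and relations were tested with exact permutation (Python 3.11.15, scipy 1.17.1). All tests took the mouse as the unit, and their p-values set a difference or relation against the variation between mice. The floor of 3 counts covers counting error only. Replicates of a group differed beyond sampling noise (chi-square per degree of freedom at least 7.49).

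Coding sequences and positions were taken from Gencode M39 on GRCm39, the authors' build with a newer annotation, and promoters from RefSeq (GRCm38.p6). The members and the gene lists were chosen with earlier results of these data known. Genes named are the 7 members, called genes of the partner lists, the 3 genes most like each member, and markers set beside a result. Dbh, the partners of the receptors that were not called, and genes near 0 were named after their values were seen. Some genes that the rule selects are left out by name. Alternatives were limma voom, DESeq2 1.42.0, upper quartile and relative log expression factors, filters of at least 1 count in any mouse and at least 10 counts in every mouse, fold minimums of 0 and 1, a prior count of 0.5, longest transcript lengths, a replicate block and each mouse left out. Leaving out the deepest mouse of each group and halving all counts were added after seeing the data. On simulated counts with 200 changed genes of 15913, the edgeR fit recovered 174 with 2 false calls.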

Additional observations from a re-analysis of the deposited data

Results flagged for a closer look

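Of the 34 group values checked for a sample far from the others (the levels and ratios of the receptor genes, the 3 region marker scores and the sequencing depth in each group), 2 stood out, about what chance gives at 1 in 20. Both were total counts: Control 5 had 40690235 and the next control 32356920, and EtOH 1 had 42183041 and the next EtOH mouse 33313181. No level of a receptor gene stood out in this way in either group. With both deep libraries left out, an alternative chosen after seeing the data, 3 receptor genes were again lower and 0 higher. The log2 fold change was then -1.26 for Adra1b, -2.95 for Adra2b and -0.61 for Adra2c. Adra2b passed the main filter through the controls alone and could only be lower, so Adra1b and Adra2c bear on this number.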

How the results depend on the processing

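The call of Adra1b held under every alternative run (log2 fold change -1.30 to -1.21). Adra2b ranged from -2.95 to -2.17 where it could be fitted, which was not so with at least 10 counts in every mouse or with counts halved. With each mouse left out, Adra2c ranged from -0.62 to -0.46 and lost its call by the fold minimum without Control 2 and without EtOH 2, and the number of receptor genes called lower ranged from 2 to 3. It was also 2 with at least 10 counts in every mouse, with counts halved and with a minimum log2 fold change of 1, and 3 under all other settings. No receptor gene was called higher in any. Adra2b is within these numbers wherever it was fitted, and under the main filter it could only be lower. The calls that bear on these numbers are therefore those of Adra1b and Adra2c. Adrb1 ranged from -0.03 to 0.16 with a mouse left out and reversed without EtOH 5, to a log2 fold change of -0.031. Adra2a reached an adjusted p of 0.0227 without EtOH 2, at a log2 fold change of 0.41 under the minimum (0.0227 to 0.364 over its alternatives, edgeR unless another tool is named). The ratios Adra1a over Adra1b, Adra1b over Adra1d and Adra2a over Adra2c passed in 12 of 12 fits with a mouse left out, and Adra1a over Adra1d in 0. With longest transcripts, Adra1a was at 0.848 CPM per kb in controls and 1.01 in EtOH mice, and Adrb1 at 14.5 in controls.

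Equal replicate numbers belong to different mice, whose deviations did not move together (correlations -0.11 to 0.02). With a replicate block over mice 1 to 5 of each group, 3 receptor genes were lower, with the same limit for Adra2b. In that fit Adra1b was at -1.26, and Adra1a had an adjusted p of 0.0336 at a log2 fold change of 0.39, under the fold minimum. Depth limits Adra2b, at 0 to 10 counts per EtOH mouse.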

Other observations

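The count of Adra2b was an even number in 12 of 12 mice and that of Adra2c in 11 of 12, beside 9 of 12 for Adra1b, 7 for Adra1a, 6 for Adrb1 and 4 each for Adra1d and Adra2a. Of the 16059 genes tested, 294 (1.83%) had even counts in all 12 mice, and of the 1886 with a mean under 1 CPM, 178 (9.44%). How the reads of a pair were counted is not given in the sources used here, and its part in these counts was not tested.

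Among the receptor genes themselves, deviations from the group mean of log2 CPM over the 12 mice went together most for Adra2b and Adra2c (Pearson's r = 0.74) and for Adra1b and Adra1d (r = 0.60), and ran most against each other for Adra1b and Adra2a (r = -0.58). These are descriptions of 21 pairs in the same libraries, with no test. Adra1b and Adra1d varied alike within the groups while their mean levels parted between them.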
